A study of Mus musculus with 130 samples.

Results

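The 20 mouse strains with the highest and the 20 strains with the lowest liver mRNA of Col1a1, which encodes the alpha-1 chain of type I collagen, were compared after dietary iron loading. The groups were chosen by the measured Col1a1 level itself, in TPM (transcripts per 1000000, a level per length of transcript), after 2 of the panel's 115 libraries were left out. The 40 strains are the 2 ends of that ranking, 73 strains lay between them, and the whole series holds 130 libraries. Each strain was a single male mouse that ate chow for 4 weeks and then a diet with 2% carbonyl iron (20000 ppm) for 6 weeks, and both groups share sex, diet and tissue. By their labels the groups differ in strain, and each strain stands for 1 mouse. BXD strains (recombinant inbred lines from C57BL/6J and DBA/2J) gave 9 high and 9 low strains, and AXB/BXA strains gave 3 high and 5 low. BXH strains gave 1 high and 0 low, CXB strains 0 high and 1 low, and standard inbred strains 7 high and 5 low. The 73 strains between them are called middle strains below. A separate diet study held 15 C57BL/6J males, 3 for each of 5 diets.

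Type I collagen is a trimer of Col1a1 and Col1a2 chains, and with type III collagen it forms the fibrils laid down in a scarring liver. In the injured liver most of it is made by hepatic stellate cells, the vitamin A storing cells of the sinusoid wall, once they turn into myofibroblasts under signals such as TGF-beta and PDGF. Iron overload is a known cause of liver fibrosis in people, and mouse strains differ in how readily they scar.

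Because Col1a1 chose the groups, its own values are a description. It ran from 2.01 to 6.09 TPM in the high strains (median 2.85), from 0.597 to 1.92 in the middle strains (median 1.10) and from 0.0476 to 0.596 in the low strains (median 0.421). The highest strains were BXA11/PgnJ at 6.09 TPM, KK/HlJ at 5.99, BTBR T<+> tf/J at 4.33 and AKR/J at 4.23. The lowest were BXD48/RwwJ at 0.0476 TPM, BXA16/PgnJ at 0.249 and NZB/BlNJ at 0.280. No gap marked either edge: C3H/HeJ entered the high group at 2.01 TPM and BXD73/RwwJ missed it at 1.92, while BXD74/RwwJ entered the low group at 0.596 and CE/J missed it at 0.597. C57BL/6J at 1.15 TPM and DBA/2J at 1.24, the parents of the BXD strains, and A/J at 0.737 all lay in the middle.

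These levels rest on few reads. The expected counts behind Col1a1 were at least 54 in every high strain and 4 to 40 in the low strains (median 29.5), of which the 4 belong to BXD48/RwwJ. In CPM (counts per 1000000, scaled by TMM factors and not per length) the groups still did not overlap, with 4.06 to 27.7 CPM in the high strains (mean 12.3 ± 5.34, SD, n = 20) against 0.295 to 3.39 in the low strains (mean 2.37 ± 0.877, n = 20). Membership of the groups did depend on the unit. Ranked by CPM, 14 of the 20 high strains stayed among the top 20 and 12 of the 20 low strains among the bottom 20. Middle strains took 6 of the top 20 places and 8 of the bottom 20. AXB5/PgnJ, in position 8 by TPM at 3.32, was at position 72 by CPM at 4.06. Its ratio of CPM to TPM was 1.22, against a median of 3.80 in the high strains, 5.15 in the middle strains and 5.74 in the low strains.

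**Figure D1:**
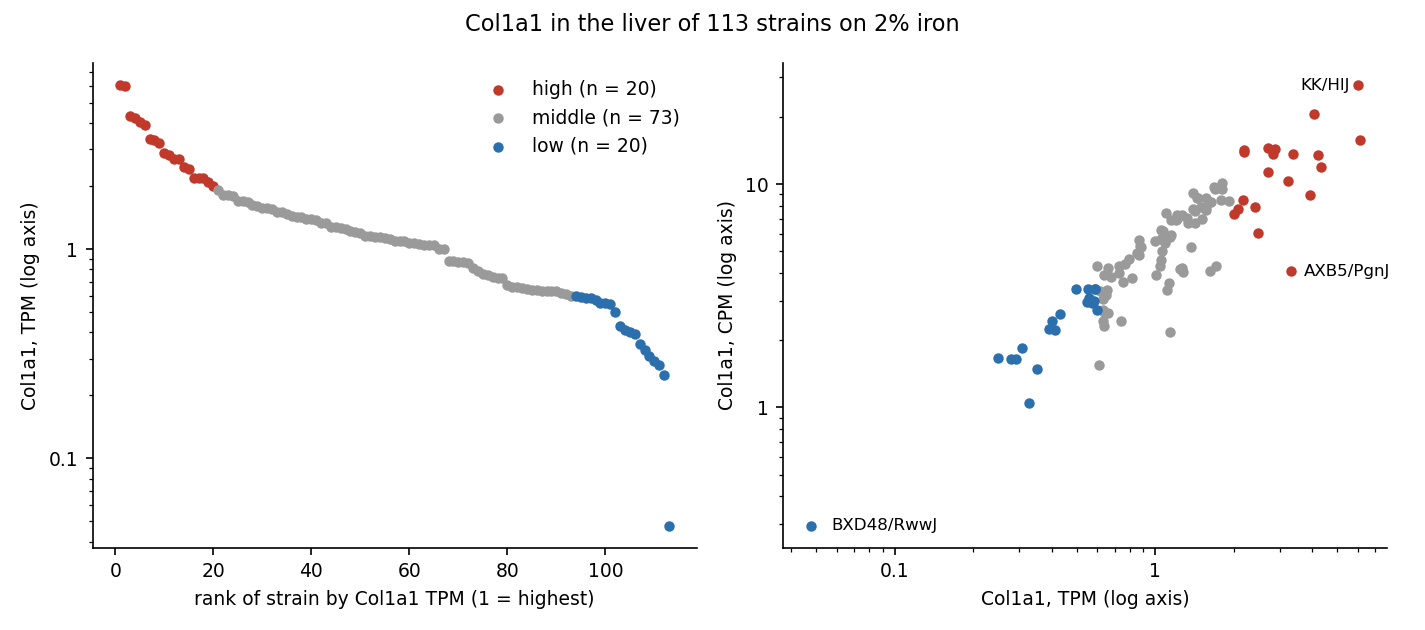
Col1a1 level in all ranked strains, 1 point per strain, with the 20 high strains in red, the 73 middle strains in grey and the 20 low strains in blue. Left, TPM on a log axis against rank, where the high edge lies between 2.01 and 1.92 TPM and the low edge between 0.597 and 0.596; right, CPM against TPM on log axes, where AXB5/PgnJ lies below the other high strains at 4.06 CPM and BXD48/RwwJ is lowest at 0.295.

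Library totals overlapped between the groups, at 9.86 to 20.6 M counts (M stands for 1000000) in the high strains (median 12.8) and 10.2 to 14.7 M in the low strains (median 11.6). Some libraries stood apart in other genes. BXD48/RwwJ held 3997 CPM of Saa1, an acute-phase protein, against 1032 in the next of all ranked strains. NZB/BlNJ held 3764 CPM of the pseudogene Gm13340 against 28.2 in the next, and KK/HlJ held 33.8 CPM of Eln against 7.42 in the next. BTBR T<+> tf/J held 170 CPM of the proliferation gene Mki67, with FVB/NJ, a middle strain, close at 120. Where a value named below moved with such a strain, it is given without that strain too. With 1 mouse per strain, p-values measure the spread between strains, and a strain cannot be told apart from its mouse.

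Of 13122 other genes tested, 170 differed between high and low strains at an adjusted p under 0.05 in edgeR's quasi-likelihood test (1.3% called), of which 29 were lower in the high strains (0.221% of those tested) and all others higher (1.07%). The median log2 difference over all genes was -0.01. An unadjusted p under 0.05 was reached by 1802 genes, Col1a1 counted among them. Counts at that threshold in the lists below stand beside this background. With the log2 library total as a term, 114 were called, 99 higher and 15 lower. On TPM the split was more one-sided: limma called 246 higher and 4 lower on log2(TPM + 1), where the median of all genes lay at 0.11, and 230 and 4 on log2(TPM + 0.1), where it lay at 0.13. Adjusted p-values below come from edgeR with Benjamini-Hochberg adjustment over all genes tested, and log2 differences are high minus low with their standard error. All genes were measured in the same libraries as the Col1a1 level that chose the groups. In bulk liver RNA, more cells of a type and more RNA per cell cannot be told apart.

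Genes of the extracellular matrix were among those higher in the high strains. Of 90 matrix genes other than Col1a1 found in the table, 69 were expressed enough to be tested, and 22 of the 69 passed, all higher, with a median log2 difference of 0.48 over the 69. The fibrillar collagens, the rope-forming chains, moved most: 4 of 5 tested were called. They included both partners of Col1a1 in the scar fibril, shown here with the 200 bases before their RefSeq start (GRCm38.p6, given strand, + in both genes), with a CCAAT box, a TATA box (TATAAA) and a GC box (GGGCGG) in capitals wherever a search of both strands found them. The Col1a2 window is chr6:4505418-4505617 and the Col3a1 window is chr1:45311338-45311537. The Col1a2 window lies inside the gene interval given below, which starts at 4504814, so the 2 annotations place the start of Col1a2 differently. The Col3a1 window ends just before its gene interval, which starts at 45311538.
Col1a2: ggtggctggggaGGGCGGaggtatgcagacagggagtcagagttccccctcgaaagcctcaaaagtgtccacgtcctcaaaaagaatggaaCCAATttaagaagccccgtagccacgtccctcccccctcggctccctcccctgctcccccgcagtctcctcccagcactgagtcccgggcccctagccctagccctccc
Col3a1: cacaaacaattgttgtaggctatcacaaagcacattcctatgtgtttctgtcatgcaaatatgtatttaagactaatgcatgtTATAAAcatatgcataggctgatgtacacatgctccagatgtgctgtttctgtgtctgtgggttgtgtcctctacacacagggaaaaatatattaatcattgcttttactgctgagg

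These motifs are common. On either strand, the CCAAT box (CCAAT) was found in 29.3% of all 32851 RefSeq windows of this length, the GC box (GGGCGG) in 31.05% and the TATA box (TATAAA) in 9.96%. Among the 157 windows of genes called higher that could be matched by symbol, the shares were 25.5%, 62.4% and 5.10%, and among windows of all tested genes they were 31.5%, 52.7% and 5.39%. The 2 sequences share none of the 3 motifs, Col1a2 holding the CCAAT box at -109 and the GC box at -188 and Col3a1 holding the TATA box at -117, counted from the RefSeq start. A match is a description of letters, not a binding site.

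Col1a2, the second chain of type I collagen (ENSMUSG00000029661, GRCm38 chr6:4504814-4541544), held 12.03 to 38.3 CPM in the high strains (median 22.3) and 4.79 to 14.5 in the low strains (median 9.33). Just the lowest high strains reached into the low range, and 18 of 20 high strains lay above every low strain. The log2 difference was 1.27 ± 0.14, or 2.42-fold, with an adjusted p of 1.52e-07. Col3a1, the type III chain (ENSMUSG00000026043, GRCm38 chr1:45311538-45349706), held 16.3 to 91.98 CPM in the high strains (median 43.7) and 0.986 to 18.4 in the low strains (median 12.1), and 17 of 20 high strains lay above every low strain. Its log2 difference of 1.97 ± 0.24, or 3.91-fold, was the largest of any called gene with a mean of at least 1 CPM that codes for protein (adjusted p 1.52e-06). Per length, Col3a1 was also the more abundant of the pair, at a mean of 16.3 TPM in the high strains against 5.32 TPM for Col1a2, and 4.19 against 1.95 TPM in the low strains.

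Type V collagen starts fibrils and sets their width. Col5a2 held 2.10 to 9.60 CPM in the high strains (median 5.73) and 1.29 to 5.15 in the low strains (median 2.84), so the ranges overlapped in part, with 11 high strains above all low strains (log2 1.13 ± 0.19, adjusted p 0.00076). Col5a1 differed by 0.82 ± 0.13 (adjusted p 0.000214), from a median of 8.71 CPM in the low strains to 14.5 in the high strains. Col5a3, the remaining fibrillar chain tested, was not called, at 1.58 to 54.5 CPM in the high and 0.376 to 32.3 CPM in the low strains (log2 0.29 ± 0.42, adjusted p 0.828).

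Of 11 other collagens tested, 6 were called, again all higher, with a median log2 difference of 0.79. Col14a1, a collagen that sits on fibril surfaces, held 52.8 to 175 CPM in the high strains (median 82.9) and 14.4 to 67.8 in the low strains (median 47.1), and 15 high strains lay above every low strain. It differed by 1.02 ± 0.14 on the log2 scale (adjusted p 5.13e-05). The 3 chains of type VI collagen, which forms beaded microfibrils around cells, were all called: Col6a3 at 1.10 ± 0.19 (adjusted p 0.000951), Col6a2 at 0.81 ± 0.17 (adjusted p 0.00792) and Col6a1 at 0.79 ± 0.21 (adjusted p 0.048). Col6a3 ran from 5.55 to 30.7 CPM in the high strains and from 3.21 to 13.4 in the low strains, and KK/HlJ was its highest strain. Col16a1, a fibril-associated chain, was higher by 0.999 ± 0.18 (adjusted p 0.00132). Of the basement membrane pair, Col4a2 was called at 0.61 ± 0.16 (adjusted p 0.0435) and its head-to-head neighbour Col4a1 gave 0.54 ± 0.18 (adjusted p 0.144). The calls of Col6a1 and Col4a2 are the weakest of these, since they held in 11 and 13 of 40 repeats that each left out 1 strain.

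**Figure D2:**
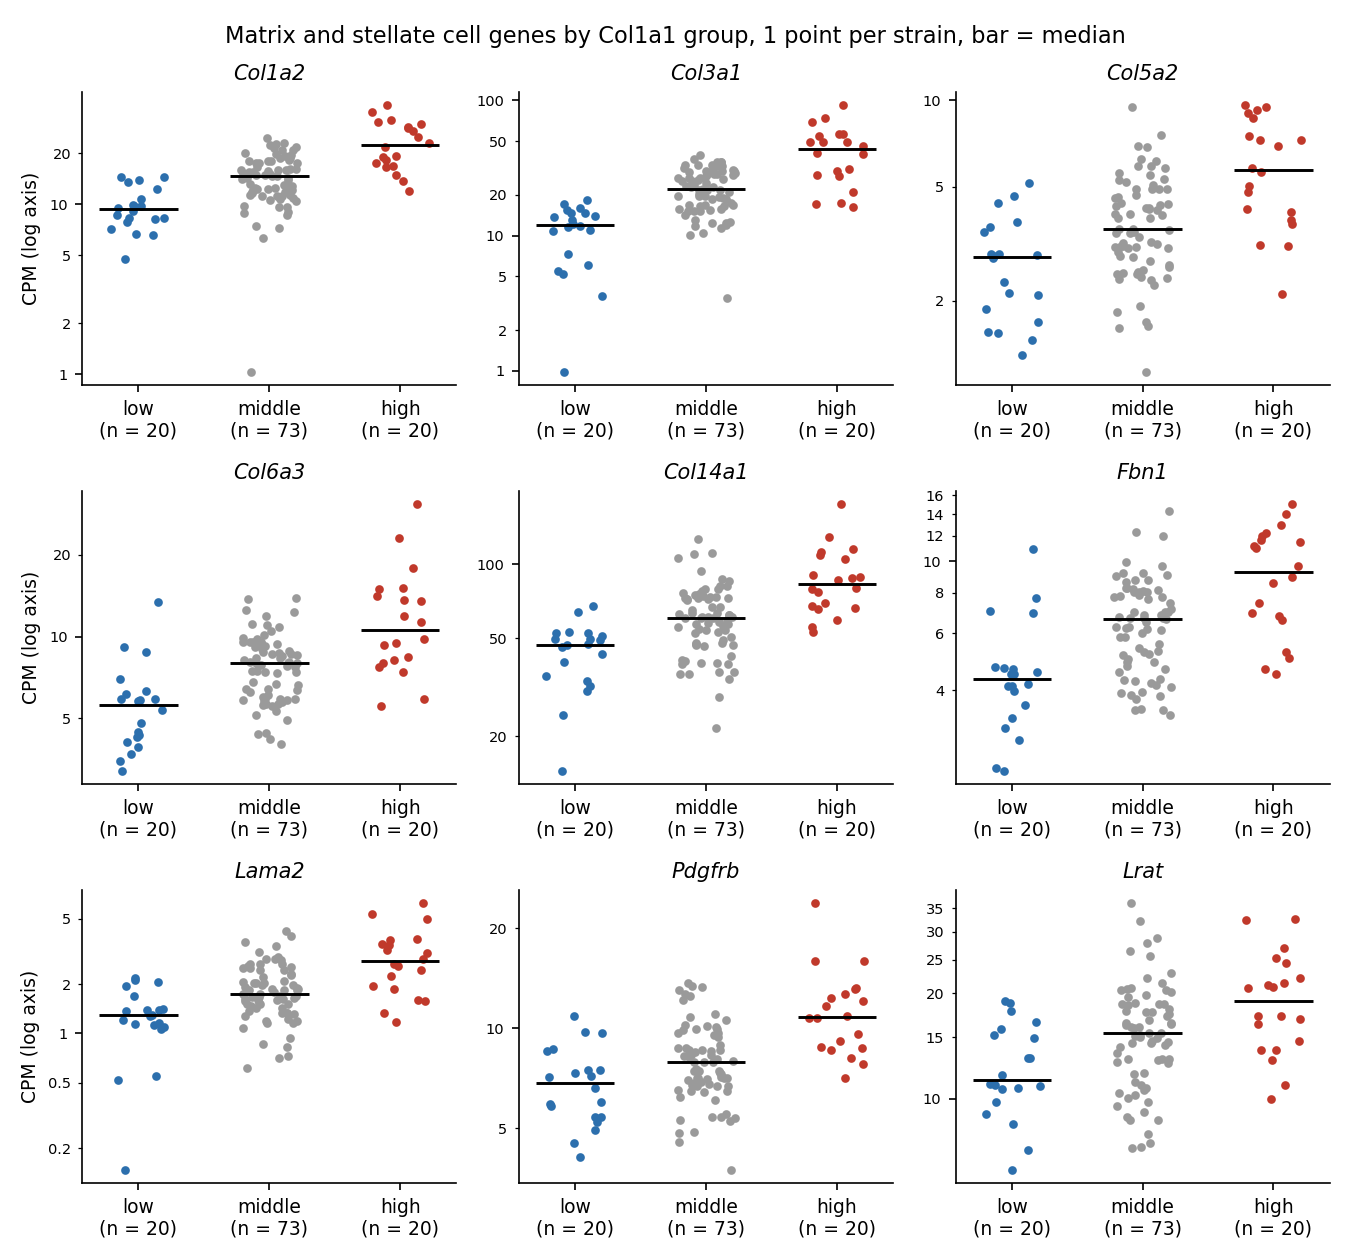
CPM on a log axis of 9 genes of the matrix and of stellate cells in the 20 low, 73 middle and 20 high strains, 1 point per strain, with a bar at the median. For Col3a1 the medians are 12.1, 22.2 and 43.7 CPM, and 17 of 20 high strains lie above every low strain; for Lrat they are 11.3, 15.4 and 18.99 CPM, with wide overlap.

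Of the machinery that folds, trims and crosslinks collagen, 3 of 21 genes were called, all higher, with a median of 0.28. Without BXA11/PgnJ and KK/HlJ 1 was called. Serpinh1, the collagen chaperone of the endoplasmic reticulum, held 4.51 to 11.8 CPM in the high strains (median 7.502) and 2.54 to 8.87 in the low strains (median 4.73), a log2 difference of 0.74 ± 0.13 (adjusted p 0.00147). Adamts2, which cuts the amino-terminal propeptide of procollagen, was higher by 0.48 ± 0.12 (adjusted p 0.0263), and Pcolce, which enhances the carboxy-terminal cut, by 0.55 ± 0.15 (adjusted p 0.0481, held in 13 of 40 repeats without 1 strain). The lysyl oxidase Loxl2, a crosslinker, gave 0.77 ± 0.23 (adjusted p 0.08). P4hb, a prolyl hydroxylase subunit and a general folding enzyme of hepatocytes, gave -0.15 ± 0.09 (adjusted p 0.488).

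Of 22 non-collagen matrix proteins tested, 8 were called, all higher, with a median of 0.54. Lama2, a laminin chain, held 1.18 to 6.22 CPM in the high strains (median 2.75) and 0.147 to 2.17 in the low strains (median 1.29), with 14 high strains above every low strain (log2 1.20 ± 0.21, adjusted p 0.00132). Its partner Lamb1 was higher by 0.67 ± 0.15 (adjusted p 0.0111). The calls included Fbn1, the fibrillin of microfibrils, at 0.99 ± 0.18 (adjusted p 0.00132), Fbln5, which anchors elastin to them, at 0.79 ± 0.16 (adjusted p 0.00792), Fbln2, another fibulin, at 0.97 ± 0.25 (adjusted p 0.0373, held in 23 of 40 repeats without 1 strain) and Eln, elastin, at 1.36 ± 0.34 (adjusted p 0.0313). Under 17 other settings, such as other filters, rankings or strain subsets, the Fbln2 call held in 2. The Eln call rests on KK/HlJ at 33.8 CPM: without that strain its difference was 0.81 with an adjusted p of 0.105.

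Sparc, which binds collagen outside the cell, was higher by 0.54 ± 0.12 (adjusted p 0.011) and the proteoglycan Bgn by 0.42 ± 0.10 (adjusted p 0.0214). Some abundant matrix genes were not called. Fn1, fibronectin, which hepatocytes secrete to plasma, held a median of 3228 CPM in the high and 3791 in the low strains (log2 -0.19 ± 0.11, adjusted p 0.441). Dcn, a small proteoglycan that binds collagen, gave 0.21 ± 0.10 (adjusted p 0.373). Of 10 genes of matrix breakdown, Plau, the urokinase that activates plasmin, was the only call, at 0.82 ± 0.21 (adjusted p 0.0329, held in 31 of 40 repeats without 1 strain). Without BXA11/PgnJ and KK/HlJ no gene of matrix breakdown was called. The collagenases' activator Mmp14 gave -0.11 ± 0.12 (adjusted p 0.734) and the gelatinase Mmp2 gave 0.31 ± 0.41 (adjusted p 0.801).

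Among genes of TGF-beta and PDGF signalling, 4 of 24 were called, all higher, with a median of 0.39. Without BXA11/PgnJ and KK/HlJ 2 were called, and the median was 0.30. Pdgfrb, the PDGF receptor of stellate cells and pericytes, held 7.07 to 23.8 CPM in the high strains (median 10.8) and 4.09 to 10.9 in the low strains (median 6.85). All 20 high strains lay above the low median and 9 above every low strain (log2 0.75 ± 0.13, adjusted p 0.00101). Its ligands Pdgfb and Pdgfd were higher by 0.83 ± 0.20 (adjusted p 0.0201) and 0.70 ± 0.19 (adjusted p 0.0467, held in 13 of 40 repeats without 1 strain). Ltbp4, which stores latent TGF-beta in the matrix, was higher by 0.79 ± 0.17 (adjusted p 0.011). The best-known members of the pathway were not called: Tgfb1 gave 0.35 ± 0.15 (adjusted p 0.263), its target Ccn2 gave 0.18 ± 0.27 (adjusted p 0.827) and Pdgfra gave 0.15 ± 0.17 (adjusted p 0.763).

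**Figure D3:**
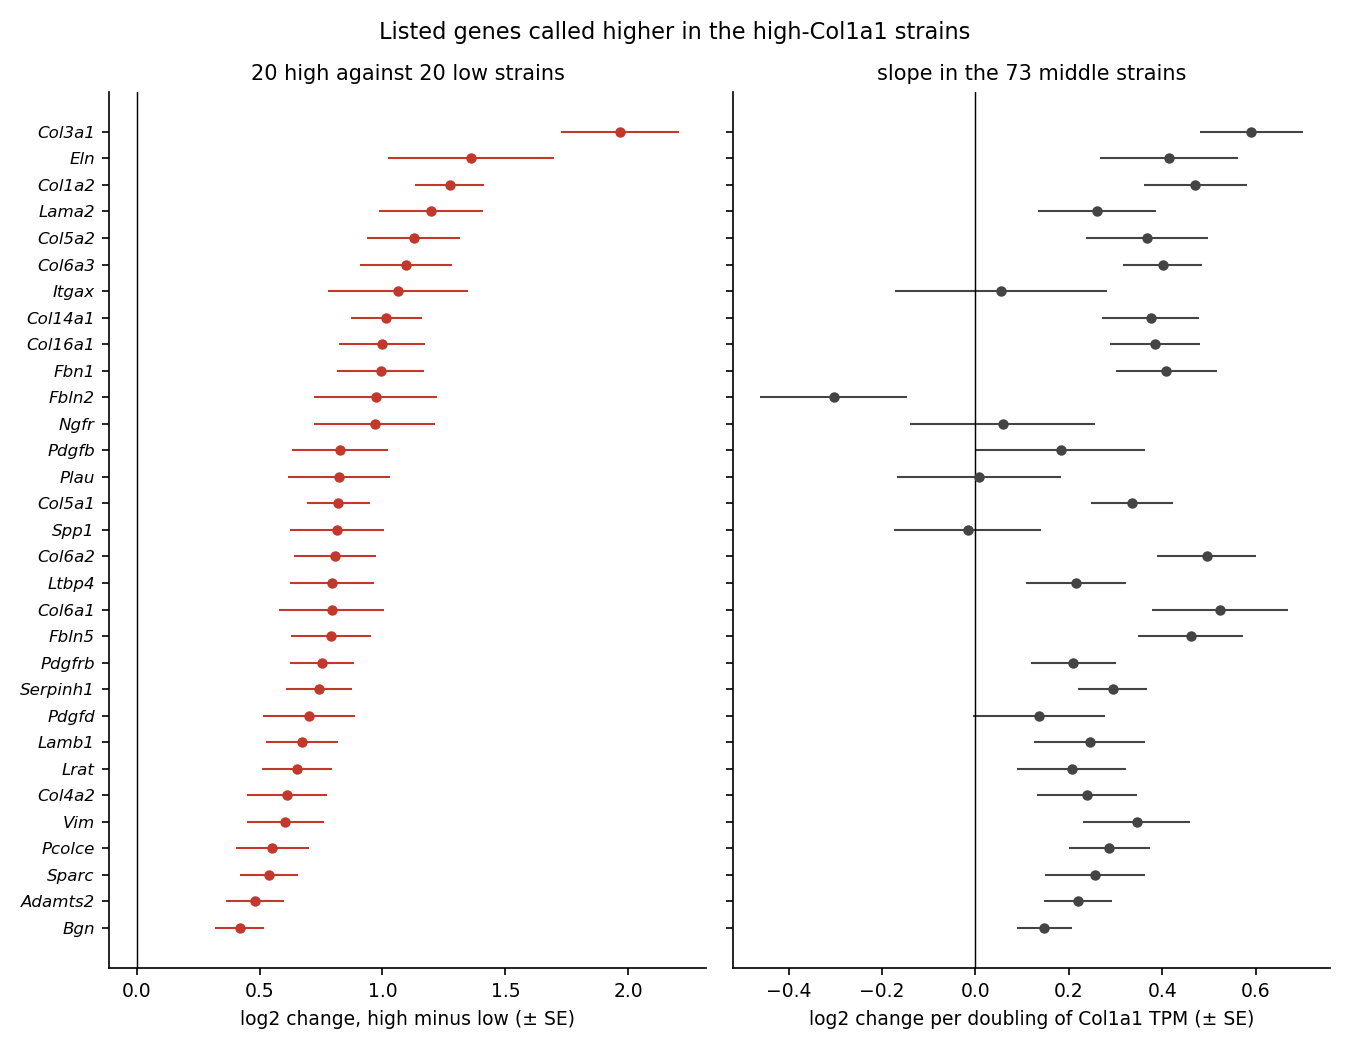
Log2 difference with its standard error for the 31 listed genes called higher in the high strains: left, 20 high minus 20 low strains; right, the slope per unit of log2 Col1a1 TPM in the 73 middle strains. Col3a1 leads both panels, at 1.97 and 0.59, while Fbln2 (-0.30) and Spp1 (-0.02) have negative slopes in the middle strains.

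All 16 stellate cell markers had a positive difference, with a median of 0.29, and 3 were called: Pdgfrb, Lrat and Ngfr. Without BXA11/PgnJ and KK/HlJ all 16 were still positive, with a median of 0.27, and 1 was called. Lrat, the enzyme that stores retinol as esters, held 9.996 to 32.7 CPM in the high strains (median 18.99) and 6.27 to 19.1 in the low strains (median 11.3), a difference of 0.65 ± 0.14 (adjusted p 0.0117). Ngfr, a neurotrophin receptor of stellate cells, was higher by 0.97 ± 0.25 (adjusted p 0.0339, held in 29 of 40 repeats without 1 strain). Des, desmin, gave 0.29 ± 0.12 (adjusted p 0.243). The summed level of the 16 markers was 228 to 416.8 TPM in the high strains (median 308) and 136 to 325 TPM in the low strains (median 248.8).

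Of 10 myofibroblast markers tested, 1 was called, Vim, the intermediate filament of mesenchymal cells, at 0.61 ± 0.16 (adjusted p 0.0388, held in 19 of 40 repeats without 1 strain). Acta2, the smooth muscle actin that defines myofibroblasts, ran from 0.440 to 4.10 CPM in the high strains (median 1.64) and from 0.221 to 4.45 in the low strains (median 1.37). The 2 ranges overlapped almost whole, and the difference was 0.37 ± 0.27 (adjusted p 0.586). Tagln, another contractile marker, gave 0.17 ± 0.12 (adjusted p 0.585). Of 6 portal fibroblast and mesothelial markers tested, the calls were Eln and Fbln2, described above, and their sums ran from 15.2 to 76.0 TPM in the high and 15.7 to 36.1 TPM in the low strains. Without BXA11/PgnJ and KK/HlJ no myofibroblast, portal fibroblast or mesothelial marker was called.

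Other cell types moved with the groups as well, and their part in the matrix differences was not tested. All 14 markers of recruited macrophages had a positive difference, with a median of 0.53, and 2 were called; without BXA11/PgnJ and KK/HlJ, 12 were positive, the median was 0.33 and none was called (7 at an unadjusted p under 0.05). Spp1, osteopontin, held 9.15 to 103.6 CPM in the high strains (median 35.6) and 11.8 to 36.1 in the low strains (median 21.8), a difference of 0.82 ± 0.19 (adjusted p 0.0196), with KK/HlJ highest. Itgax, an integrin of macrophages and dendritic cells, was higher by 1.064 ± 0.29 (adjusted p 0.0465, held in 12 of 40 repeats without 1 strain), while Lyz2 gave 0.61 ± 0.19 (adjusted p 0.0987), Cd68 0.43 ± 0.16 (adjusted p 0.193) and Trem2 0.24 ± 0.16 (adjusted p 0.559). The macrophage sum was 301 to 1104 TPM in the high strains (median 484) and 228 to 480 TPM in the low strains (median 335).

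Of 9 markers of Kupffer cells, the resident macrophages of the liver, none was called and 5 passed an unadjusted p of 0.05 in edgeR, all higher, with Clec4f at 0.43 ± 0.15 (adjusted p 0.139) and Cd5l at 0.54 ± 0.15 (adjusted p 0.0573); DESeq2 and limma on log2(TPM + 1) called 1 each. Their sum had medians of 411 and 333.6 TPM in the high and low strains. Of 12 sinusoidal endothelial markers none was called by edgeR, DESeq2 or limma. None passed an unadjusted p of 0.05 in edgeR, where the median difference was 0.14, and 6 did in limma on log2(TPM + 1), all higher, with a median of 0.26. Among 7 cholangiocyte markers the only call was Spp1, which is on that list too, and the sums ran from 21.1 to 129 TPM in the high and 22.6 to 51.5 TPM in the low strains. The 12 hepatocyte markers summed to medians of 78730 TPM in the high and 78108 TPM in the low strains; edgeR and limma called none, 6 passed an unadjusted p of 0.05 in edgeR, all lower, and DESeq2 called 1 lower. No defining marker of these types was at 0 in all 40 libraries.

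**Figure D4:**
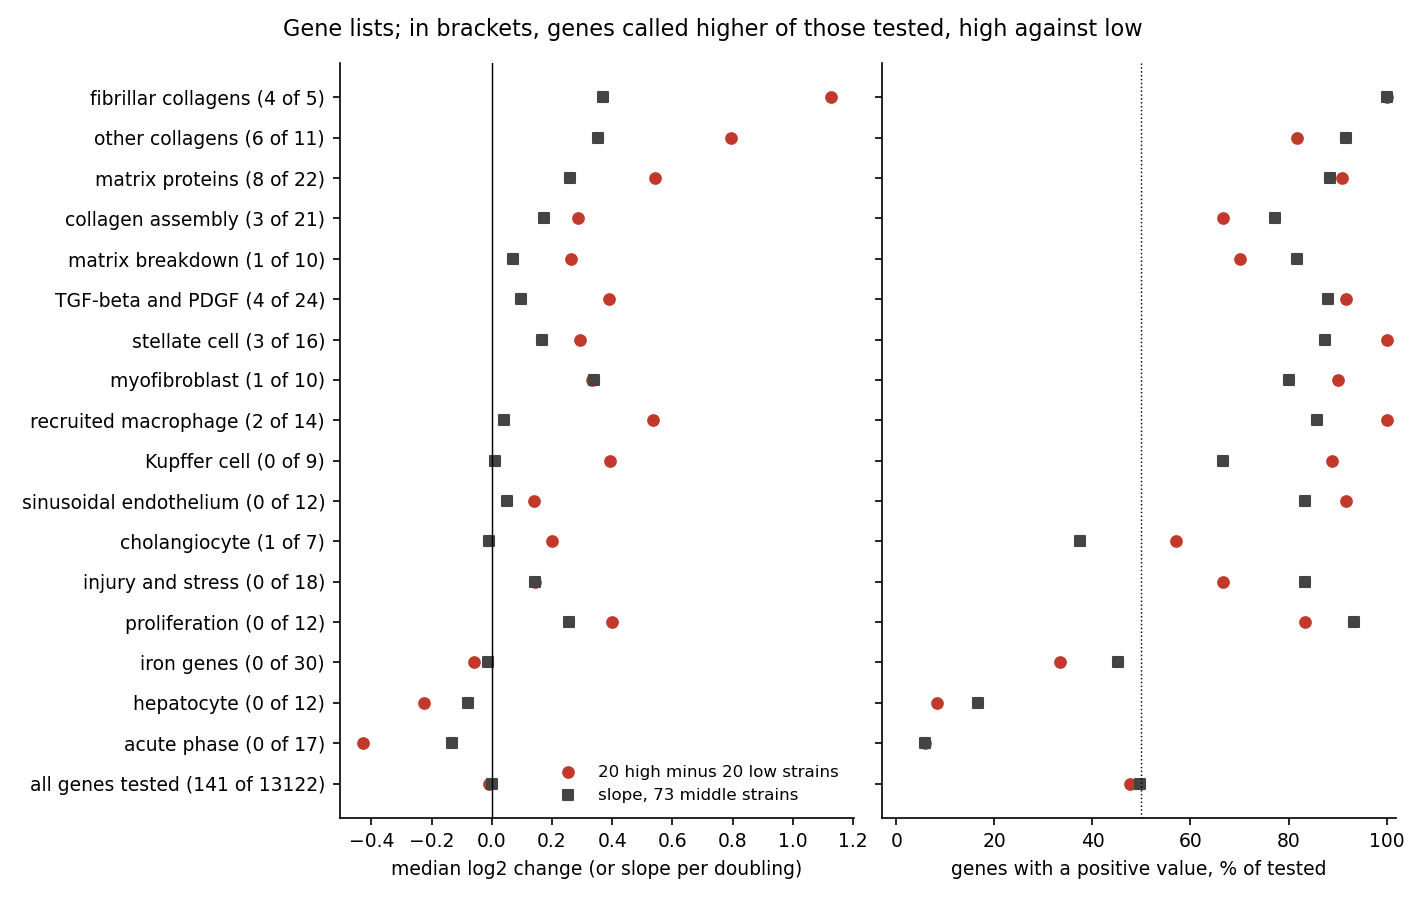
Gene lists with the number called higher of those tested in the high against low comparison in brackets: left, the median log2 difference (red circles) and the median slope per unit of log2 Col1a1 TPM in the 73 middle strains (grey squares); right, the share of genes with a positive value, with a dotted line at equal shares. Fibrillar collagens lie farthest right at 1.13 and 0.37, recruited macrophage markers at 0.53 and 0.04, and acute-phase genes lowest of the lists drawn, at -0.43 and -0.13.

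Beyond the lists, the largest differences among called protein-coding genes included Heyl, a Notch target of pericytes, at 1.15 ± 0.25 (adjusted p 0.0111), with 0.775 to 4.11 CPM in the high and 0.0974 to 2.25 CPM in the low strains. Mrc2, the endocytic receptor that takes up collagen, was higher by 1.11 ± 0.25 (adjusted p 0.0153), and Jazf1, a zinc-finger protein, by 1.11 ± 0.23 (adjusted p 0.00816). Osbpl3, a lipid transfer protein, was higher by 1.33 ± 0.34 (adjusted p 0.0329) but reached 54.2 CPM in BXA11/PgnJ against a high median of 6.60. The middle strains CBA/J, at 66.0 CPM, and DBA/2J, at 55.5, held more of it. Arhgef2, a RhoA exchange factor, was higher by 1.12 ± 0.28 (adjusted p 0.0333) and reached 119 CPM in KK/HlJ against a high median of 17.4. Their calls held in 32 and 28 of 40 repeats without 1 strain.

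Further mesenchymal genes, picked after their values were seen, were called in the same direction. Notch3, the Notch receptor of mural cells, was higher by 0.86 ± 0.18 (adjusted p 0.00792), Itga8, an integrin of stellate cells, by 0.93 ± 0.19 (adjusted p 0.00756), and Igfbp7, a secreted protein of vessel walls, by 0.51 ± 0.09 (adjusted p 0.00154). Htra1, a secreted protease that cuts matrix proteins, held 0.194 to 2.77 CPM in the high and 0 to 0.798 CPM in the low strains, with 17 high strains above every low strain (log2 1.78 ± 0.29, adjusted p 0.000589). Lama1, a laminin chain, was higher by 0.94 ± 0.14 (adjusted p 0.000173).

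The 29 genes lower in the high strains formed no matrix group, and none was on any list. Il1r1, the interleukin 1 receptor, held 26.1 to 109 CPM in the high strains (median 42.6) and 20.1 to 175 in the low strains (median 82.9), and 18 of 20 high strains lay below the low median (log2 -0.91 ± 0.20, adjusted p 0.0122). Acox2, the peroxisomal oxidase of bile acid precursors, held 100 to 215 CPM in the high strains (median 166) and 134 to 374.9 in the low strains (median 239), and all 20 high strains lay below the low median (log2 -0.52 ± 0.10, adjusted p 0.0064). Eif4ebp3, a translation repressor, was lower, at -1.16 ± 0.29 (adjusted p 0.0338), as were Abcd4, which moves vitamin B12 out of lysosomes, at -0.71 ± 0.14 (adjusted p 0.0064), and Sdc4, a heparan sulfate proteoglycan, at -0.52 ± 0.13 (adjusted p 0.0318). The calls of Eif4ebp3 and Sdc4 held in 33 and 36 of 40 repeats without 1 strain, and that of Abcd4 in all 40. Rnase4 (-0.60 ± 0.13, adjusted p 0.0118) shares its locus with the angiogenin gene, Amy1 (-0.49 ± 0.10, adjusted p 0.0064) has close paralogs and Ugt1a6a (-0.43 ± 0.12, adjusted p 0.0477, held in 11 of 40 repeats without 1 strain) shares exons with its neighbours, so the counts of these 3 genes may be split between copies. The pseudogene Gm13340 was called lower at -3.59 only through NZB/BlNJ, and without that strain the difference was 0.08.

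No iron gene was called between the groups. None of 30 passed in edgeR, DESeq2 or limma, and the median was -0.06 in edgeR and 0.04 in limma on log2(TPM + 1). At an unadjusted p under 0.05 in edgeR 5 passed, all lower, beside 1802 genes over the 13122 tested plus Col1a1. Hamp, the hormone hepcidin that blocks iron export, held 473 to 1167 CPM in the high strains (mean 850 ± 212, n = 20) and 338.3 to 1236 CPM in the low strains (mean 876 ± 216.7, n = 20), a difference of -0.04 ± 0.12 (adjusted p 0.935). The ferritin chain Fth1 gave -0.16 ± 0.10 (adjusted p 0.519). Haptoglobin, Hp, had the lowest adjusted p of the list, at 0.145, with -0.66 ± 0.23, and its highest library was BXD48/RwwJ at 20270 CPM; without that strain it gave -0.35 (adjusted p 0.312). Liver iron itself was not analysed here.

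No acute-phase gene was called by edgeR, DESeq2 or limma, and the values of this list moved with BXD48/RwwJ. In edgeR 16 of 17 had a negative difference, with a median of -0.43, and 8 passed an unadjusted p of 0.05, all lower. Without BXD48/RwwJ 12 of 17 were negative, the median was -0.12 and 4 passed, and outside the BXD strains 9 of 17 were negative, with a median of -0.06. Within the BXD strains of the groups, BXD48/RwwJ included, all 17 were negative, with a median of -0.94, and 13 passed. In the middle strains, which do not hold BXD48/RwwJ, 16 of 17 slopes on log2 Col1a1 TPM were negative. Their median was -0.13 and 2 passed, both negative. Saa1 ran from 4.74 to 535.96 CPM in the high strains (median 25.8) and from 3.10 to 3997 in the low strains (median 24.98), so the medians nearly coincided. Its fitted difference of -1.58 ± 0.78 (adjusted p 0.367) turned to 0.63 (adjusted p 0.695) without BXD48/RwwJ. The fibrinogen chain Fgb gave -0.43 ± 0.15 (adjusted p 0.159), and -0.41 without that strain. None of 18 injury and stress genes was called by the 3 tools, with 4 higher and 2 lower at an unadjusted p under 0.05 in edgeR. None of 12 proliferation genes was called by any of the 3, with none at an unadjusted p under 0.05 in edgeR, 1 higher in limma, and 4 of 11 higher in edgeR without BXD48/RwwJ and NZB/BlNJ. In edgeR 10 of the 12 had a positive difference, with a median of 0.40.

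The middle strains are libraries that entered neither group. There each gene was fitted on log2 Col1a1 TPM as a slope, in log2 units per unit of log2 Col1a1, over a range that narrows to 0.597 to 1.92 TPM. Of 13822 genes tested, 8 were called (0.0579%), 5 with a positive slope (0.0362%) and 3 with a negative slope (0.0217%). Of these 5, 3 are collagens: Col3a1 at 0.59 ± 0.11 (adjusted p 0.00246), Col6a2 at 0.50 ± 0.11 (adjusted p 0.0205) and Col6a3 at 0.40 ± 0.08 (adjusted p 0.0205). Col3a1 was called in all 73 repeats that each left out 1 middle strain, Col6a3 in 72 and Col6a2 in 69. Col1a2 gave 0.47 ± 0.11 and missed the threshold at an adjusted p of 0.0679, being called in 7 of the 73 repeats. BXD22/TyJ, a middle strain at 0.610 TPM of Col1a1, held the lowest middle level of Col1a2, 1.03 CPM, and of Col3a1, 3.44 CPM.

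Rnf144a, a ubiquitin ligase, was the other positive call that held in all 73 repeats, at 1.18 ± 0.23 (adjusted p 0.0074), with BXH8/TyJ highest at 29.6 CPM. The call of Ces2h rests on PL/J, that of Gm7336 on CE/J and that of Dnah17 on BALB/cByJ, with adjusted p-values of 0.991, 0.9998 and 0.998 without those strains. The remaining call, Fmo6, at -2.75 ± 0.59 (adjusted p 0.0205), is a gene with a middle median of 0.0870 CPM.

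Genes called higher in the high against low comparison mostly leaned the same way in the middle strains. Of the genes called higher, 128 had a positive slope and 13 a negative one, and 47 (33.3% of them) passed an unadjusted p of 0.05 with a positive slope, with none passing it with a negative one; among all 13121 genes tested in both, 49.3% had a positive slope and 3.00% passed with a positive one. Of the 29 called lower, 17 had a negative slope and 12 a positive one (41.4%, against 49.3% of all genes), and 2 passed in each direction. For the matrix list, 65 of 76 slopes were positive with a median of 0.26, against a median of -0.00 over all genes, and 36 passed an unadjusted p of 0.05 with a positive slope. The lean was not confined to matrix genes. Of proliferation genes 14 of 15 slopes were positive, with a median of 0.25, and 2 passed. Of injury and stress genes 15 of 18 were positive, with a median of 0.14, and 4 passed. No gene of these 2 lists was called. For cell markers the median slope was 0.17 for stellate cells, 0.34 for myofibroblasts, 0.06 for portal fibroblasts and mesothelium, 0.04 for recruited macrophages and 0.01 for Kupffer cells. Spp1 had a slope of -0.02 ± 0.16 and Itgax of 0.05 ± 0.23 in the middle strains, and whether these lists differ from each other was not tested.

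Over all ranked strains, the 40 chosen included, the slope on log2 Col1a1 TPM was called for 743 of 14200 genes (5.23%), 229 with a negative slope (1.61%) and all others with a positive one (3.62%). Of 80 matrix genes tested there, 45 were called positive and 1 negative. Of 17 acute-phase genes 10 were called negative and none positive, and of 31 iron genes 4 were called negative and none positive. Without BXD48/RwwJ those negative calls were 1 and 0, while 45 matrix genes were called positive and 0 negative.

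Ranked by Pearson correlation of log2 CPM with Col1a1 over the 73 middle strains, the genes most like it among 12030 protein-coding genes were Col3a1 (r = 0.744), Col1a2 (r = 0.630), Col6a3 (r = 0.578), Fbln5 (r = 0.550), Col5a1 (r = 0.544) and Col6a2 (r = 0.525). Col16a1 (r = 0.514), Col14a1 (r = 0.477), Serpinh1 (r = 0.462) and the septin Sept4 (r = 0.4596) followed. The 95th percentile of r over all those genes was 0.21 and the median -0.00. These are descriptions across 73 libraries that share platform and diet, and all 10 genes were also called higher in the high strains, including Sept4 at 0.40 ± 0.10 (adjusted p 0.0296).

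The fibrillar collagens were called with strain family in the model as well. With family as a term, 189 genes were called (1.44%), 151 higher and 38 lower, and the Col3a1 difference was 1.99 and that of Col1a2 1.30. Within the 18 BXD strains of the groups 12 genes were called (0.0916%), 11 higher (0.084%) and 1 lower (0.00763%), and within the 22 other strains 5 (0.0386%), 3 higher (0.0232%) and 2 lower (0.0154%). Col1a2 and Col3a1 were the genes called in both: Col1a2 at 1.35 (adjusted p 0.0163) in BXD and 1.20 (adjusted p 0.0058) elsewhere, and Col3a1 at 1.93 (adjusted p 0.0209) and 1.99 (adjusted p 0.0172). Some named genes were called in 1 of the subsets, with a value of the same sign in the other. Col5a1 gave 0.97 (adjusted p 0.0447) in BXD and 0.70 (adjusted p 0.191) elsewhere, and Ltbp4 1.17 (adjusted p 0.0163) and 0.54 (adjusted p 0.631). Col14a1 gave 0.94 (adjusted p 0.137) in BXD and 1.057 (adjusted p 0.0058) elsewhere, and Abcd4 -0.52 (adjusted p 0.478) and -0.87 (adjusted p 0.0172). Whether these high against low differences themselves differ between the subsets was not tested.

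A test of whether slopes on Col1a1 differ between BXD and other strains over all ranked strains called 17 genes (0.12%), 4 with a higher slope in BXD strains (0.0282%) and 13 with a lower one (0.0915%), and no matrix gene was among them. They included acute-phase and innate immune genes with a lower slope in BXD strains, such as Saa1, at -0.72 in BXD and 0.72 in other strains (difference -1.44 ± 0.31, adjusted p 0.0132). Without BXD48/RwwJ, which has both the lowest Col1a1 and the highest Saa1, the difference was -1.06 with an adjusted p of 0.998. BXD48a/RwwJ, a line with a related name, lay at position 62 of the ranking, whose last position BXD48/RwwJ holds.

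**Figure D5:**
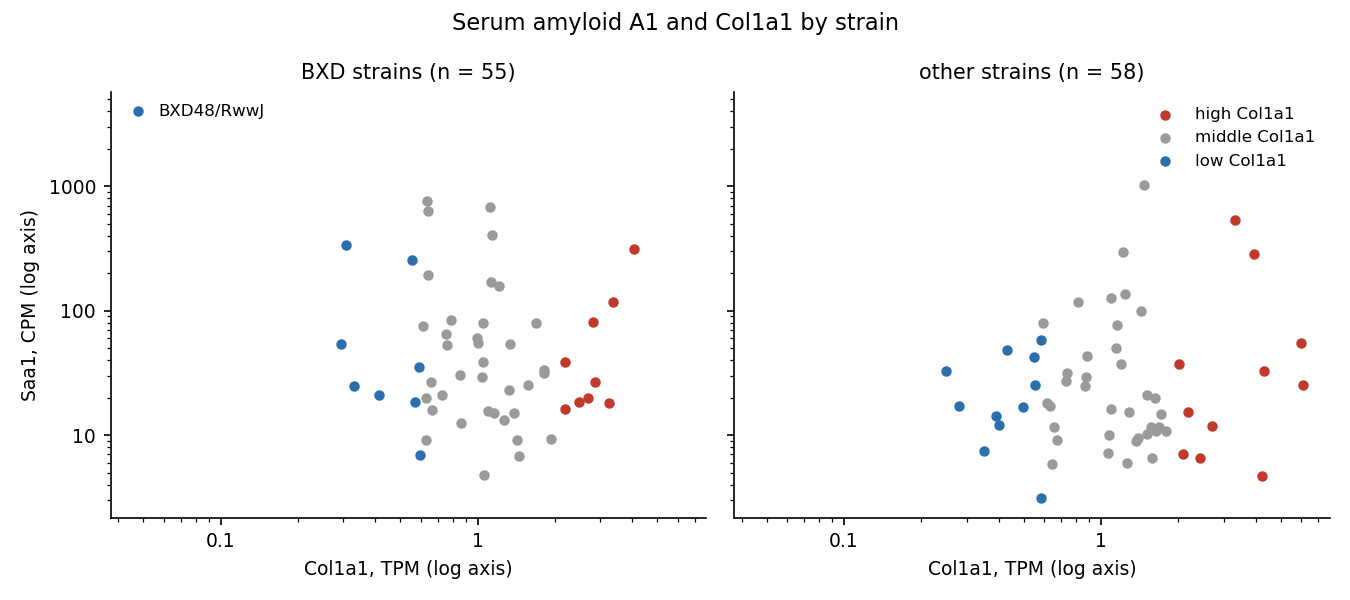
Saa1 in CPM against Col1a1 in TPM, both on log axes, in 55 BXD strains (left) and 58 other strains (right), 1 point per strain, coloured by Col1a1 group. BXD48/RwwJ stands alone at 3997 CPM of Saa1 and 0.0476 TPM of Col1a1; the other low strains lie among the middle and high strains.

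The diet study shows where these levels lie in mice of 1 strain on 5 diets. In C57BL/6J, Col1a1 held 13.3, 6.40 and 27.8 CPM on 2% iron, 8.86, 10.4 and 8.01 on 2% iron with cellulose, and 6.20, 13.3 and 18.2 on 500 ppm iron. On 50 ppm iron it held 13.6, 12.4 and 20.97 CPM, and on chow 2.82, 4.85 and 5.38 CPM. Chow was the lowest diet in all its 3 mice, while the 2% iron and 50 ppm mice overlapped. The share of higher calls among these contrasts depended on the unit: edgeR called 1155 genes higher (8.52%) and 972 lower (7.17%) on 2% iron than on 50 ppm, and 1607 (11.9%) and 1480 (10.9%) against chow, where limma on log2(TPM + 1) called 804 and 404, and 1381 and 564. In the panel the single C57BL/6J mouse, a middle strain, held 6.90 CPM of Col1a1, and the highest strain, KK/HlJ, held 27.7. The 3 C57BL/6J mice on 2% iron thus spread from near that middle level to near the panel's highest. The tables of the 2 studies were made separately, so their CPM are set side by side without a test.

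Both contrasts below share the 2% iron mice. Against 50 ppm iron, where 2127 of 13560 genes differed (15.7%), Col1a1 differed by 0.01 ± 0.44 (adjusted p 0.986), Col1a2 by 0.38 (adjusted p 0.364) and Col3a1 by -0.04 (adjusted p 0.965). Against chow, where 3087 differed (22.8%), Col1a1 was higher by 1.85 ± 0.48 (adjusted p 0.014), Col1a2 by 1.36 (adjusted p 0.0036) and Col3a1 by 1.42 (adjusted p 0.031). The Col1a1 call against chow was lost without 1 mouse: it was 1.63 (adjusted p 0.0581) without chow replicate 1 and 1.16 (adjusted p 0.0864) without 2% iron replicate 3. Of the 22 matrix genes higher in the high strains, 13 were higher on 2% iron than on chow and 4 higher than on 50 ppm, with none lower in either. Of all 79 matrix genes tested, 33 were higher and 3 lower than on chow, and 14 higher and 3 lower than on 50 ppm. The labels do not give the composition of chow, so its iron content and its other ingredients cannot be told apart here.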

How the data were processed

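Liver mRNA was sequenced from 1 male mouse per strain of the panel and from 3 mice per diet in the diet study, with a stranded kit, per the labels' protocols. The authors' deposited tables hold expected counts per gene, not normalized, and TPM for the same genes. The submitters' processing notes name kallisto 0.46 and mm10, and the panel tables name Ensembl release 97. Expected counts were rounded to whole numbers, although the design had assumed counts. Identifiers were matched to GENCODE M21 (GRCm38) for 35691 of 35711 panel genes and 34924 of 35274 diet genes. Depth was 9.41 to 20.6 M counts (M, 1000000) per panel library and 10.4 to 20.4 M per diet library. The labels name no batch.

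The deposited Col1a1 TPM ranked the panel strains after 2 of 115 libraries were left out, the library of BXD65/RwwJ and a second library of 129X1/SvJ. Genes were tested with edgeR 4.0.16 (glmQLFit, glmQLFTest, TMM, filterByExpr) in R 4.3.3, two-sided, and called at an adjusted p under 0.05. DESeq2 1.42.0 and limma 3.58.1 on log2(TPM + 1) or log2(TPM + 0.1) were alternatives, beside other factors, filters, group sizes, rankings and strain subsets. The tests were tried on simulated data. Members and gene lists were chosen with earlier results of these data known. Named genes are list members, the 10 largest rises and falls among called genes that code for protein and average 1 CPM or more, the 10 genes most correlated with Col1a1 in the middle strains and the 3 smallest p for the slope difference; others are marked as picked after their values were seen. Values of some single genes are not reported here. Promoter windows are RefSeq's (GRCm38.p6).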

Additional observations from a re-analysis of the deposited data

Results flagged for a closer look

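The slope of 17 genes on log2 Col1a1 TPM differed between BXD and other strains in edgeR's test of the difference itself over all ranked strains (BXD minus other, in log2 per unit of log2 Col1a1). The difference was positive for 4 pseudogenes and predicted genes, whose slopes outside the BXD strains ran from -1.43 to -1.25: Gm13339 at 1.55, Gm13340 at 1.33, Gm43743 at 1.42 and Gm4076 at 1.26. All 4 were highest in NZB/BlNJ, a low-Col1a1 strain outside the BXD family, and none was called without that strain.

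The slope was lower in BXD strains for acute-phase and inflammatory genes: Saa1 at -1.44, Saa2 at -1.83, Saa3 at -0.62, Steap4 at -0.53, Il1rn, the interleukin 1 receptor antagonist, at -0.57, Irak3 at -0.74, Cd14, the endotoxin coreceptor, at -0.56, Icam1 at -0.37 and Zc3h12a at -0.39. It was lower also for Pkp1 at -0.83, Fyb2 at -0.37 and Tinag at -1.003. Without BXD48/RwwJ, the strain lowest in Col1a1, none of the 13 genes with a lower slope in BXD strains was called, with adjusted p-values of 0.901 for Zc3h12a and 0.998 for the others. Their differences stayed negative without it, from -1.45 for Saa2 and -1.06 for Saa1 to -0.20 for Icam1. All 17 acute-phase genes tested had a negative difference of slope with BXD48/RwwJ and all 17 without it, with medians of -0.29 and -0.25. Tinag was highest in KK/HlJ at 11.1 CPM.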

How the results depend on the processing

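Against the 170 genes called between high and low strains, 308 were called by DESeq2 (232 higher, 76 lower), 26 with the 10 highest against the 10 lowest strains (26 higher), 12 in BXD strains, 5 outside them, 62 without BXA11/PgnJ and KK/HlJ, 1255 when ranked by Col3a1 TPM (602 higher, 653 lower), 743 as a slope over all ranked strains and 889 as that slope without BXD48/RwwJ. Without 1 strain each the count ran from 96 (BXA11/PgnJ) to 257 (NZB/BlNJ), with 103 without KK/HlJ and 110 without BXD36/TyJ. The matrix count of 22 became 8, 3, 3, 14, 35, 46 and 45 under the same alternatives from the 10 highest on, and ran from 16 to 25 without 1 strain each. The 8 slopes called in middle strains became 3 in BXD strains, 4 with at least 10 counts in every library and 0 in limma (504 at an unadjusted p under 0.05), and ran from 5 (without BXD27/TyJ) to 13 (without BXD15/TyJ or BXD87/RwwJ). The 17 differences of slope became 27 in DESeq2, 5 without BXD48/RwwJ, 39 without NZB/BlNJ and 2 without both. Col1a1 on 2% iron against 50 ppm turned to -0.0047 in limma on log2(TPM + 0.1) and, without 1 mouse each, ran from -0.67 (without 2% iron replicate 3) to 0.39 with no call; against chow it ran from 1.16 to 2.22. Gm13340 turned to 0.13 in BXD strains, 0.080 in DESeq2 and 0.095 without BXD48/RwwJ and NZB/BlNJ, and ran from -3.67 to 0.083 without 1 strain each, the last without NZB/BlNJ. For 78 named genes, 968 of 1376 other values kept direction and side of the threshold, as did 2637 of 3103 without 1 strain. Where no cause is visible in a setting's own construction, such as fewer strains or genes, the cause was not tested. Dropping substrains or pancreas-rich libraries left the groups as they were and was not run. No paired analysis was possible because each strain was 1 mouse and fell in a single group. The low strains' 4 to 40 counts of Col1a1 limit the ranking at its low end.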
